A study of Rattus norvegicus with 9 samples.

Results

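The transcripts described here were assembled outside all annotated rat genes: they carried no annotated identifier, consisted of a single exon, and overlapped the span of no annotated transcript on either strand. Over the 9 libraries, 204507 of the 817330 assembled transcripts met this rule, out of 555558 unannotated transcripts in all. They were placed in 3 classes by their distance from the nearest annotated 3′ end upstream on the same strand, namely under 5 kb, 5 to 50 kb, and over 50 kb or with no such end on the chromosome. The rule itself used no expression value. A transcript could meet it only where it had been assembled, however, and assembly needs a minimum of reads. Numbers, lengths and levels are therefore compared among assembled transcripts only.

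Bone marrow MSCs (mesenchymal stem cells, at passage 3) from 3 Sprague-Dawley rats aged 4 weeks were sequenced untreated and after induction to NPCs (the paper's neural progenitor-like cells). For 3 days NPCs were held in ultra-low-attachment plates, in NeuroCult NS-A medium to which EGF and bFGF had been added at 20 ng/ml each, and the last group received IGF-1 as well, at a dose that neither labels nor paper state. Each group held 3 libraries of polyadenylated RNA, prepared with a stranded kit from 300 ng and read single-end. No library came from cells moved to the induction medium without growth factors, so effects of medium, suspension and growth factors cannot be told apart. The 3 libraries of a group are the biological replicates, and transcripts of one library are not.

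RNA from between genes has several known sources. RNA polymerase II runs past the polyadenylation site before it is released, and annotated 3′ untranslated regions can be shorter than the ones a cell uses, so transcribed sequence often follows a gene on its own strand. Farther away lie genes of long non-coding RNAs, genes of small structural RNAs and active enhancers, and some of their products have a single exon.

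The deposited FPKM (fragments per kilobase of transcript and per M mapped fragments, M standing for mega) came with a 95% confidence interval. Its width was taken to give the number of reads behind each transcript, assuming that it narrows with the square root of the reads. This rule was not checked against read counts, and all numbers and shares of reads below rest on it. Depth implied in this way was 45.5, 54.7 and 48.2 M mapped reads in MSCs, 43.3, 41.8 and 51 M in NPCs, and 51.9, 45.6 and 45.8 M with IGF-1. Of the cell type markers chosen, gene names were available for 2 of 7 for MSCs, 2 of 5 for neural progenitors and 2 of 7 for blood cells. Vim, an intermediate filament gene of mesenchymal cells, stood at 2560 to 3015 FPKM in MSCs and 674 to 879 FPKM in NPCs. Cd68, a macrophage marker, stood at 0.226 to 0.502 FPKM in MSCs, 9.54 to 11.4 FPKM in NPCs and 8.93 to 14.4 FPKM with IGF-1, while Ptprc, the pan-leukocyte marker, stayed between 0 and 0.014 FPKM in all 9 libraries. Nes, listed both as an MSC and as a neural progenitor marker, was low throughout and went the other way from Vim. It stood at 0.0534 to 0.152 FPKM in MSCs, 0.293 to 0.328 in NPCs and 0.268 to 0.331 with IGF-1. The other named neural progenitor marker, Msi1, stood at 0.314 to 0.545, 0.212 to 0.457 and 0.364 to 0.719 FPKM. The summed level of Nes and Msi1 was 0.459 to 0.697 FPKM in MSCs, 0.540 to 0.75 in NPCs and 0.694 to 0.987 with IGF-1. These shifts accompanied every difference from MSCs given below, and their part in those results was not tested.

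Single-exon transcripts between genes were about 2 times as numerous after induction. MSC libraries held 12820, 16179 and 12926 of them. NPC libraries held 29562, 28648 and 27000, and libraries with IGF-1 held 28915, 23453 and 25004. All 6 induced libraries lay above all MSC libraries, while the 2 induced groups overlapped. In these bulk libraries, fewer cells of a type and less RNA per cell cannot be told apart. The means were 13975 ± 1909 (SD, n = 3) in MSCs, 28403 ± 1298 in NPCs and 25791 ± 2815 with IGF-1, which gives ratios to MSCs of 2.03 and 1.85. An exact permutation test over all assignments of the 9 libraries gave p = 0.0107, or 0.0268 after Benjamini-Hochberg adjustment over 5 measures. Between pairs of groups the exact two-sided p was 0.1 for each induced group against MSCs, the smallest that 3 against 3 libraries allow, and 0.3 for IGF-1 against NPCs. Of the 3 NPC libraries, 2 were the shallowest of all 9. Per M mapped reads there were 282 ± 14 members in MSCs, 632 ± 89 in NPCs and 539 ± 22 with IGF-1.

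**Figure D1:**
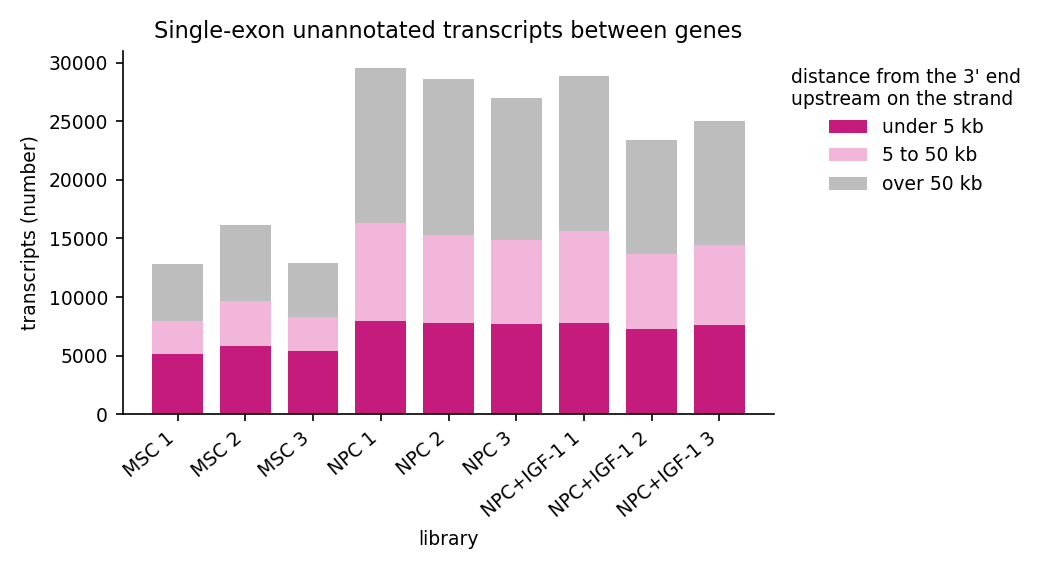
Number of single-exon unannotated transcripts between genes in each of the 9 libraries (bars from 0), divided by distance from the annotated 3′ end upstream on the same strand. The 3 MSC libraries reach 12820 to 16179 and the 6 induced libraries 23453 to 29562, and the segment under 5 kb grows least.

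The added transcripts lay mostly far from genes. Under 5 kb the mean number went from 5440 ± 340 (SD, n = 3) in MSCs to 7798 ± 115 in NPCs and 7548 ± 291 with IGF-1, ratios of 1.43 and 1.39. Between 5 and 50 kb it went from 3184 ± 599 to 7719 ± 643 and 7033 ± 712, ratios of 2.42 and 2.21. Beyond 50 kb the means were 5351 ± 1009, 12887 ± 666 and 11210 ± 1850, ratios of 2.41 and 2.10. In each class, no induced library overlapped the MSC libraries.

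The share of members under 5 kb therefore differed between groups. It was 40, 35.8 and 41.7% in MSCs, 26.8, 27.0 and 28.6% in NPCs, and 26.9, 30.8 and 30.5% with IGF-1. Every induced library stood below every MSC library (exact permutation p = 0.0107 over 3 groups, adjusted p = 0.0268), and the 2 induced groups overlapped. The Wilson 95% interval of a single library's share was at most 1.70 percentage points wide and covers counting error only.

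At a finer scale the ratio between groups climbed with distance. In the first 1 kb after an annotated 3′ end, NPCs held 1.29 times the mean number in MSCs. The ratio was 1.41 from 1 to 2 kb, 1.47 from 2 to 3 kb, 1.62 from 3 to 4 kb and 1.79 from 4 to 5 kb. It passed 2 between 6 and 7 kb, at 2.03. With IGF-1 the same steps gave 1.25, 1.34, 1.42, 1.60 and 1.75 times the MSC number, and 1.96 between 6 and 7 kb. Both induced groups share the MSC libraries as their reference, so these series are not independent of each other.

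**Figure D2:**
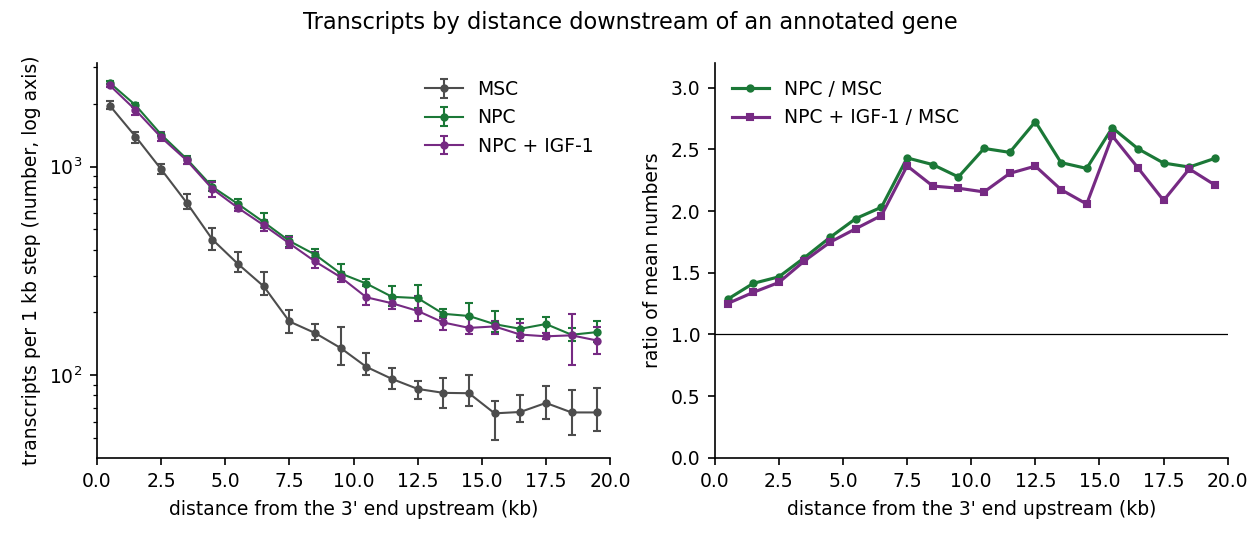
Left, mean number of members in each 1 kb step of distance from the annotated 3′ end upstream (log axis), with bars from the lowest to the highest of 3 libraries of a group; right, ratio of the induced mean to the MSC mean. In all 3 groups the first step holds more members than any other, and there NPCs hold 1.29 times the MSC number, and the ratio rises to 2.03 between 6 and 7 kb.

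Despite this shift, members remained densest just after genes. The windows under 5 kb make up 2.48% of the bases between genes, counted on each strand, against 13.9% for 5 to 50 kb and 83.6% beyond. MSCs had 52.2 ± 3.3 members per megabase of strand in the near windows, 5.44 in the middle class and 1.52 in the far class. NPCs had 74.8 ± 1.1, 13.2 and 3.67, and libraries with IGF-1 had 72.4 ± 2.8, 12 and 3.19. Members more than 5 kb from every annotated gene end, on either strand, numbered 6566 ± 1267 in MSCs and 16190 ± 878 in NPCs, which were 46.8 and 57.0% of all members.

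The genes next to the near members were largely expressed ones. Members under 5 kb followed 2782 ± 166 distinct genes per library in MSCs, 3563 ± 68 in NPCs and 3581 ± 68 with IGF-1. At least 1 FPKM was reached by 89.6% of these genes in MSCs, 91.4% in NPCs and 92.2% with IGF-1, against 41.6, 43.0 and 43.2% of all genes. Looked at from the gene, 22.8 ± 1.1% of the genes at 1 FPKM or more had a member in the following 5 kb in MSCs, compared with 28.9 ± 0.5% in NPCs and 29.1 ± 0.5% with IGF-1.

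Members were short and thinly covered in all groups. Their median length was 399, 368 and 363.5 bases in MSCs, 381, 331 and 337 bases in NPCs, and 365, 387 and 375 bases with IGF-1. No difference in median length passed the test (exact permutation p = 0.254, adjusted p = 0.286). Members under 5 kb were the longest class, with mean medians of 436, 399 and 423 bases in MSCs, NPCs and NPCs with IGF-1, against 343, 330 and 355 bases beyond 50 kb.

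The median deposited FPKM likewise showed no difference past the test. It was 2.37, 2.34 and 3.00 FPKM in MSCs, 2.50, 3.55 and 2.82 FPKM in NPCs, and 2.32, 2.37 and 2.53 FPKM with IGF-1 (exact permutation p = 0.286, adjusted p = 0.286). These medians say little about abundance, because FPKM of transcripts close to the fragment length are divided by a small effective length. In reads, fewer than 30 supported 70.7% of members in MSCs, 75.4% in NPCs and 74.5% with IGF-1, and more than 100 supported 9.55, 6.64 and 7.17%.

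As a share of the library, members took more of the reads after induction. They held 2.63, 2.63 and 2.56% of the mapped reads in MSCs. They held 4.57, 4.55 and 3.73% in NPCs and 3.9, 4.03 and 4.35% with IGF-1, so that all 6 induced libraries lay above the MSC libraries. The group means were 2.61 ± 0.039, 4.29 ± 0.48 and 4.09 ± 0.23% (SD, n = 3), and the exact permutation test over 3 groups gave p = 0.0214 with an adjusted p of 0.0357. NPCs were derived from MSCs of the same 3 rats, and with the replicate number as a block the exact p was 0.0833, so that the difference no longer passed, although no source says that equal numbers mark the same rat. The direction turned when the share was taken from summed FPKM, where the means were 20.1% in MSCs and 9.48% in NPCs, or from FPKM times length as a share of its sum over all transcripts, where they were 12 and 9.61%. Taken against the nominal total of mapped fragments instead, FPKM times length gave 15.3% in MSCs and 21.7% in NPCs, the direction of the read share.

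Each class contributed to the larger share. Members under 5 kb took a mean of 1.05% of reads in MSCs, 1.38% in NPCs and 1.33% with IGF-1. The middle class took 0.461, 0.814 and 0.909%, and the class beyond 50 kb took 1.10, 2.09 and 1.85%. A single member held a mean of 26.5% of these reads in MSCs and 26.4% in NPCs, and without it the shares of mapped reads were 1.92, 3.15 and 3.07%.

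Other single-exon unannotated transcripts, which overlap annotated genes and so include those inside introns, had the larger ratio between groups. They held 0.850 ± 0.098% of reads in MSCs, 3.19 ± 0.76% in NPCs and 2.45 ± 0.14% with IGF-1, 3.76 times as much in NPCs as in MSCs. Transcripts between genes accordingly made up a smaller part of the unannotated ones after induction, with 44.5% in MSCs, 34.3% in NPCs and 36.5% with IGF-1. Whether the share between genes moved with that inside genes for a common reason was not tested.

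**Figure D3:**
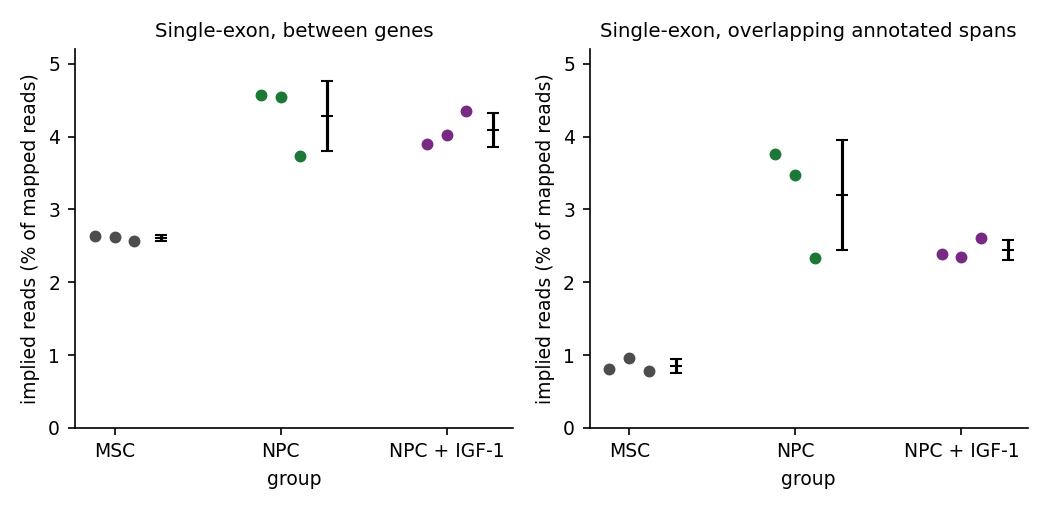
Share of mapped reads (percent, implied from the FPKM intervals) held by single-exon unannotated transcripts between genes (left) and overlapping annotated spans (right); points are libraries, and the bar beside them is the mean ± SD of 3. Between genes the means are 2.61% in MSCs, 4.29% in NPCs and 4.09% with IGF-1, and on the right 0.850, 3.19 and 2.45%.

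To follow the same stretch of genome through all libraries, members that overlapped on one strand were joined, which gave 47117 regions. Of these 12043 lay under 5 kb from an upstream 3′ end, 12608 at 5 to 50 kb and 22466 beyond. Most were seen rarely: 20269 regions (43.0%) came from 1 library only and had a median length of 272 bases. The 2605 regions assembled in all 9 libraries (5.53%) had a median length of 1976 bases and held 67.9% of the members' reads. The 5 highest regions alone held 30.9 to 38.1% of the reads of a library's members.

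Presence differed between the groups in the direction of the totals. All 6 induced libraries and no MSC library held a member in 1457 regions, and in 1409 of these the MSC libraries had no other assembled exon on that strand either. The reverse pattern, all 3 MSC libraries and no induced one, was found in 398 regions (359 with no other exon). All 3 NPC libraries alone shared 221 regions, and all 3 libraries with IGF-1 alone shared 150. The MSC pattern asks for absence from 6 libraries and the induced pattern for absence from 3, so the counts are not on the same footing. A transcript that is not assembled may still be transcribed, since assembly needs a minimum of reads.

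The highest region of each pattern, among those with no other exon in the libraries without it, was short, and none is tested, since presence chose them. A stretch of 140 bases at chr3:66890411-66890550 (minus strand) carried 165, 97.1 and 149 reads in the MSC libraries. In the others no transcript was assembled there, so their reads are not known. On chr2:9710478-9710529 (plus strand), 52 bases more than 50 kb from any gene, no transcript was assembled in the 3 MSC libraries. The normalised level there (implied RPKM, the implied reads per kb of region and M mapped reads) was 11.1, 4.41 and 7.91 in NPCs and 10.7, 15.3 and 15.8 with IGF-1. For NPCs alone the highest region was chr7:119063600-119063757 (minus strand), at 5.50, 3.18 and 1.36. For IGF-1 alone it was chr6:62350492-62350556 (minus strand), where 17, 16 and 14 reads lay on 65 bases. Coordinates here and below are those of the deposited files, for which no genome build is given in the sources used here.

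Levels were then tested for the regions that reached an implied RPKM of 0.1 in every library of the comparison, together with the annotated genes and the other unannotated regions. Of the 47117 regions, 2765 passed this minimum for NPCs against MSCs. The tool limma called 788 of them (28.5%), asking for a log2 fold change of 1 or more in size and an adjusted p of 0.05 or less, against 22.1% of all features tested. Of these, 673 rose in NPCs and 115 fell, so that 85.4% of the calls were rises, though after quantile normalisation the calls were 268 rises and 209 falls, or 56.2% rises. The median log2 fold change of the tested regions was 0.47, while that of annotated genes was -0.01 and their calls were nearly balanced at 1172 rises and 1106 falls. After quantile normalisation the medians were 0.04 and -0.05, and with no rescaling they were 0.54 and 0.07. Quantile normalisation gives all libraries the same distribution and so can itself remove a broad shift. The size of the shift thus depended on the scaling, and its source was not tested. The other unannotated features had a median of 0.84, with 38.9% called. They are single-exon ones that overlap gene spans and spliced ones, of which some can lie between genes.

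With IGF-1, too, regions leaned towards rises against MSCs. Of 2368 regions tested, 620 (26.2%) were called, against 21.3% of all features, with 501 rises and 119 falls, and with 238 rises and 184 falls after quantile normalisation. The median log2 fold change was 0.42 for regions and 0.00 for genes, and 0.03 and -0.03 after quantile normalisation. Between NPCs with and without IGF-1, limma called none of the 2368 regions and 0% of all features. An unadjusted p under 0.05 was found for 146 of the 2368 regions, beside 767 of all 15543 features and 511 of 12029 genes. The median region differed by -0.09 on the log2 scale in that comparison. The 2 comparisons with MSCs share the MSC libraries.

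By distance, the median change was smallest next to genes. Against MSCs, regions under 5 kb in NPCs had a median log2 fold change of 0.35 (245 rises and 53 falls among 1302), those at 5 to 50 kb 0.56 (164 and 35 among 570), and those beyond 50 kb 0.61 (264 and 27 among 893). The called shares were 22.9, 34.9 and 32.6%, so that the near class was called about as often as all features (22.1%). With IGF-1 the medians were 0.32, 0.50 and 0.50, and the called shares 21.0, 32.9 and 29.5% beside 21.3% of all features. These are descriptions of the tested regions, which are the better covered ones.

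The 5 regions of highest mean level among those assembled in all 9 libraries included 4 of 72 to 355 bases. The highest, chr15:31571344-31571691 (minus strand, 348 bases), began 149 bases from the start of ENSRNOG00000008892 on the other strand. Its normalised level was an implied RPKM of 3768, 832 and 4198 in MSCs, 5453, 4513 and 5148 in NPCs, and 6296, 8463 and 7224 with IGF-1. Here MSC replicate 2 was far below its group. The difference of NPCs from MSCs, 1.01 ± 0.60 (SE) on the log2 scale, did not pass (limma, adjusted p = 0.228), and that with IGF-1, 1.53 ± 0.54, passed narrowly (adjusted p = 0.0498). That call was kept in 2 of the 9 fits that left out a library, being lost without MSC replicate 2 and without any 1 of the induced libraries, and in 5 of 21 alternatives in all.

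The same library was low at the second region, chr5:63519183-63519537 (minus strand, 355 bases), which lay 306 bases from the start of Ccdc107 on the opposite strand and 3268 bases after Arhgef39, a guanine nucleotide exchange factor gene. The normalised level was 3216, 938 and 4061 in MSCs, 3460.0, 3748 and 4365 in NPCs, and 3726, 5734 and 4389.7 with IGF-1. The groups overlapped, and neither comparison with MSCs passed (limma, adjusted p = 0.375 and 0.183), though that with IGF-1 was called without MSC replicate 3 and after quantile normalisation. Arhgef39 itself went the other way, from 9.84, 16.2 and 11.2 FPKM in MSCs to 3.41, 4.04 and 2.43 FPKM in NPCs. The fourth region, 157 bases at chr4:142131084-142131240 (minus strand), stood between 165 and 500.4 in all libraries and overlapped between groups. The fifth, 72 bases at chr16:89985401-89985472 (minus strand), varied most within a group, at 26.3, 1493 and 976 in MSCs, 9.64 to 46.1 in NPCs and 10.6 to 40.1 with IGF-1. It was not called in NPCs (limma, adjusted p = 0.079), and with IGF-1 it was called lower (-4.27 on the log2 scale, adjusted p = 0.0341) although MSC replicate 1 lay within the range of the other group. The call was kept in 12 of 21 alternatives and lost without MSC replicate 2 or 3 or IGF-1 replicate 2 or 3, while the difference of NPCs was called without MSC replicate 1.

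The third region held more reads than any other. It was 6681 bases long, at chr1:228084556-228091236 (minus strand), 55050 bases after the nearest upstream 3′ end, that of ENSRNOG00000020881. It received 321075, 401917 and 304964 reads in MSCs, 582523, 486435 and 464270 in NPCs, and 480534, 469818 and 515743 with IGF-1. In normalised terms this was 1056, 1099.9 and 948 in MSCs, 2013, 1742 and 1361 in NPCs, and 1386, 1544 and 1685 with IGF-1. Every induced library exceeded every MSC library. The log2 fold change of 0.63 ± 0.19 (SE) in NPCs passed the adjusted p (limma, 0.0357) but lay below the size asked of a call, as did the 0.48 with IGF-1 (adjusted p = 0.0413). After quantile normalisation these were 1.13 and 1.07, and both were called.

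Another long region lay between it and ENSRNOG00000020881 on the same strand, at chr1:228115069-228137150 (22082 bases). It shows how a single-exon rule depends on assembly. The members within it gave 18.3, 18.5 and 18.8 implied RPKM in MSCs, but 2.43, 2.49 and 0.0106 in NPCs and 1.95, 2.28 and 109 with IGF-1. When every unannotated exon on that strand was counted, the values were unchanged in MSCs and became 41.0, 18.5 and 52.2 in NPCs and 38.0, 21.9 and 109 with IGF-1. In 5 of the 6 induced libraries a spliced unannotated transcript had been assembled over the stretch in place of a single-exon one. The region did not reach the minimum in every library and was not tested.

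Among called regions with groups that did not overlap, the largest rise in NPCs lay far from any gene, at chr9:47652900-47656830 (plus strand, 3931 bases, 381166 bases after the nearest 3′ end). Its normalised level was 0.548, 0.731 and 0.363 in MSCs, 9.88, 10.6 and 10.5 in NPCs, and 6.98, 6.60 and 9.37 with IGF-1. The log2 fold change was 3.98 ± 0.23 (SE) in NPCs (limma, adjusted p = 7.36e-05) and 3.53 ± 0.21 with IGF-1 (adjusted p = 8.65e-06). Directly before it on the strand lay chr9:47647616-47652828 (5213 bases), also among the largest rises, at 0.150, 0.316 and 0.268 in MSCs and 3.22, 4.0 and 3.06 in NPCs. No annotated gene lies between them, and whether they belong to a single transcript was not tested.

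Another large rise covered 3669 bases. At chr7:140705933-140709601 (plus strand) the level was 0.132, 0.150 and 0.209 in MSCs and 3.10, 7.09 and 3.31 in NPCs, a log2 fold change of 3.96 ± 0.35, while libraries with IGF-1 stood at 3.31, 0.0574 and 5.31. The low value was 1.11 when every unannotated exon on the strand was counted.

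A pair of the largest rises followed genes with known roles, and in both the gene rose too. The 2614 bases at chr3:126567482-126570095 (minus strand) began 1625 bases after Bcl2l11, which encodes the pro-apoptotic protein BIM. The region stood at 0.244, 0.363 and 0.339 implied RPKM in MSCs, 6.90, 7.26 and 3.18 in NPCs, and 4.98, 8.20 and 7.35 with IGF-1, log2 fold changes of 3.68 ± 0.34 and 3.97 ± 0.33 (limma, adjusted p = 0.000458 and 3.83e-05). Bcl2l11 stood at 1.27, 2.09 and 2.98 FPKM in MSCs and 22.6, 10.6 and 9.76 FPKM in NPCs, a log2 fold change of 2.60.

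The other, chr1:51835809-51839054 (plus strand, 3246 bases), began 1578 bases after Sod2, the gene of mitochondrial superoxide dismutase. Its normalised level was 0.210, 0.323 and 0.253 in MSCs, 3.28, 2.92 and 4.44 in NPCs, and 3.28, 3.59 and 5.28 with IGF-1. The log2 fold change was 3.26 ± 0.27 (SE) in NPCs (limma, adjusted p = 0.000296), above the 2.07 of Sod2, which went from 21.5, 20.7 and 22.5 FPKM to 77.0, 79.6 and 143 FPKM. A further region among the largest rises with IGF-1, chr8:28427388-28428772 (plus strand, 1385 bases), went from 0.152, 0.507 and 0.210 in MSCs to 2.86, 4.72 and 6.06.

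The largest fall was sharp and short. At chr2:218083525-218083854 (minus strand, 330 bases, in the class beyond 50 kb) the normalised level was 23.5, 26.7 and 27.6 in MSCs, 1.66, 0.798 and 1.84 in NPCs, and 2.03, 3.16 and 2.16 with IGF-1. The class counts only upstream 3′ ends, and ENSRNOG00000002223 lay 4657 bases downstream on the same strand. The region fell by 4.24 ± 0.32 (SE) on the log2 scale in NPCs (limma, adjusted p = 0.000189) and fell by 3.46 with IGF-1. No induced library came near the MSC values. The next, chr8:14499827-14503473 (minus strand, 3647 bases), followed ENSRNOG00000011585 by 547 bases and went from 3.09, 3.66 and 2.84 to 0.215, 0.327 and 0.284 in NPCs, so that it fell by 3.21, while the gene fell by 2.42.

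The other large falls were at chr10:12699558-12699741 (plus strand, 184 bases), chr2:270060268-270063211 (plus strand, 2944 bases) and chr10:67459491-67459841 (plus strand, 351 bases). The first went from 15.3, 12.4 and 17.4 in MSCs to 2.13, 1.69 and 1.49 in NPCs and 2.61, 3.08 and 1.41 with IGF-1. The second went from 5.62, 7.02 and 5.13 to 0.75, 0.578 and 1.31 in NPCs. The third fell by 2.40 on the log2 scale and fell by 2.74 with IGF-1, but with FPKM times length as the level neither was called, and the change with IGF-1 turned to 0.28. With IGF-1, chr12:40518395-40518599 (plus strand, 205 bases) was also among the largest falls, from 16.3, 18.3 and 17.2 to 2.35, 4.43 and 1.81.

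**Figure D4:**
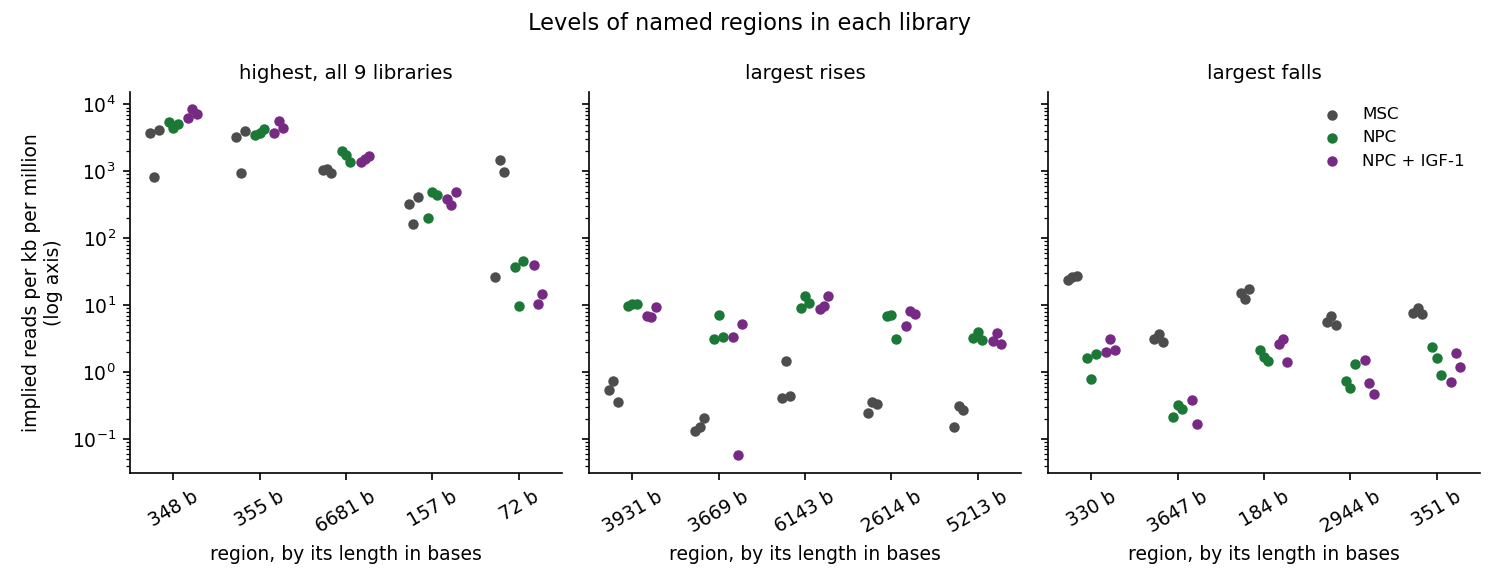
Normalised level (implied RPKM, log axis) of 15 regions, each point a library, with regions named by length in bases: the 5 highest assembled in all 9 libraries, and the 5 largest rises and 5 largest falls of NPCs against MSCs. The highest regions overlap between groups or nearly so, while the rises and falls, chosen for groups that do not overlap, separate NPCs from MSCs; a library at 0 is not drawn.

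Further regions were chosen by rank of level or length. Under 5 kb the second highest region was chr18:28067925-28069331 (plus strand, 1407 bases), 1570 bases after ENSRNOG00000044615, at 99.7, 132 and 142 in MSCs, 188, 261 and 200 in NPCs, and 175, 269 and 211 with IGF-1. Its log2 fold change of 0.71 ± 0.22 in NPCs had an adjusted p of 0.0397 (limma) and was below the size of a call, which it reached after quantile normalisation. The longest region of all, chr4:58104096-58127038 (minus strand, 22943 bases), stood at 1.23, 1.04 and 0.881 in MSCs and 2.23, 1.77 and 2.12 in NPCs (0.83 ± 0.22, adjusted p = 0.0243). The third longest, chr15:50933592-50953135 (plus strand, 19544 bases), followed ENSRNOG00000011634 by 1031 bases and was called in the other direction, from 3.91, 4.59 and 4.48 in MSCs to 1.31, 1.2 and 2.58 in NPCs and 1.54, 0.669 and 0.655 with IGF-1. It fell by 1.45 ± 0.32 in NPCs (adjusted p = 0.0120), and its gene fell by 1.81.

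Regions under 5 kb were then set beside the gene before them. Of the 245 regions under 5 kb that rose in NPCs, 232 had an upstream gene that was tested: 38 of these genes rose (16.4%), 3 fell and 191 were not called. Over all 12149 genes tested, 1172 rose and 1106 fell. Beside the regions not called, 39 of 972 genes rose and 62 fell. The risen regions' median log2 fold change was 1.36 and that of their genes 0.28, but the regions were chosen for a change of at least 1 and the genes were not. Of the 53 regions that fell, 52 had a tested gene, of which 38 fell, none rose and 14 were not called, with medians of -1.50 and -1.38. With IGF-1, 28 of 173 genes before a risen region rose and 3 fell, and 38 of 54 genes before a fallen region fell. Over all 12029 genes tested there, 1190 rose and 1092 fell. These counts describe called regions and were not tested against each other.

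**Figure D5:**
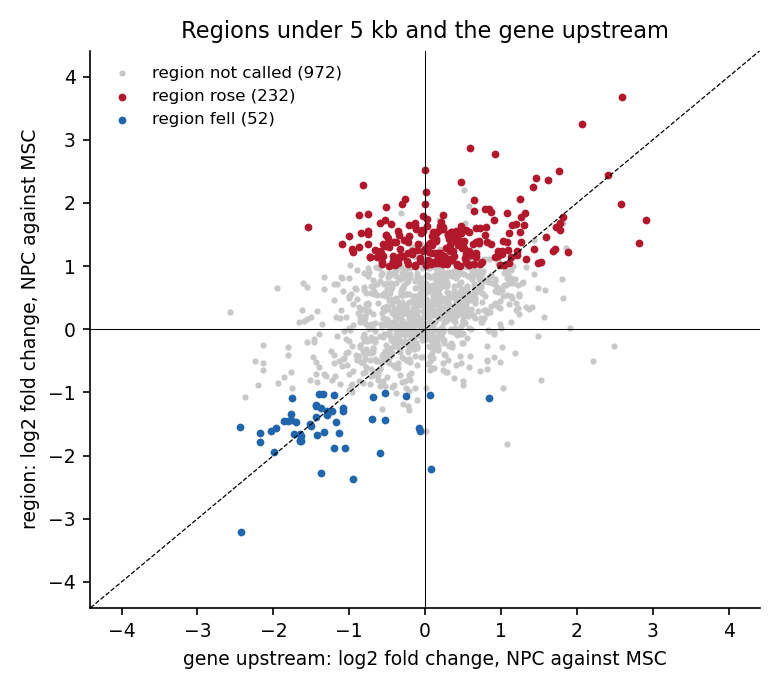
Log2 fold change of NPCs against MSCs for regions under 5 kb (vertical axis) and for the gene upstream (horizontal axis), each point a region, with the dashed line marking equal change. Risen regions (232 points), which were called for a change of at least 1, have a median of 1.36 with genes at 0.28. Fallen regions (52 points) lie near the line, with medians of -1.50 and -1.38.

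Named genes stood upstream of 40 called regions under 5 kb whose groups did not overlap, 26 rising and 14 falling, out of 110 tested (36.4%). Without asking that groups be apart, 22.9% of all tested regions under 5 kb and 22.1% of all features were called. The names come from tables that the study drew up from MSC and NPC samples, so this share is not independent of the comparison. The examples that follow were chosen after their values were seen. After Chst12, a chondroitin sulfotransferase gene, chr12:18188782-18191846 (minus strand) went from 0.299, 0.276 and 0.264 in MSCs to 1.49, 1.5 and 1.71 in NPCs, a rise of 2.06 ± 0.23 beside 1.25 for the gene. The stretch chr7:142359052-142359933 (plus strand) began 114 bases after Hoxc11, a homeobox gene of posterior body regions, and stood at 1.40, 1.35 and 0.939 in MSCs, 5.67, 6.13 and 4.40 in NPCs, and 4.91, 5.73 and 5.60 with IGF-1, a change of 1.98 ± 0.21 (limma, adjusted p = 0.000726). Hoxc11 itself was uneven and did not pass (adjusted p = 0.0716). After Ptpn4, a tyrosine phosphatase gene, chr13:40792576-40793219 (minus strand) rose by 1.87 and the gene's change was 0.64.

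Falling regions are illustrated in the same way. The 2 pieces after Dmd, the dystrophin gene, at chrX:53697996-53698704 and chrX:53698774-53700019 (plus strand), fell by 1.76 ± 0.31 and 1.70 ± 0.28 on the log2 scale, and Dmd fell by 1.64. The first went from 1.56, 2.48 and 1.44 to 0.358, 0.439 and 0.690 in NPCs. After Sntb1, which encodes a syntrophin that binds dystrophin, chr7:96017297-96018110 (minus strand) went from 4.6, 6.69 and 3.83 to 1.78, 1.35 and 1.77, a fall of 1.62 beside 2.03 for the gene. The region after Ccdc80, a gene of the extracellular matrix, fell by 1.55, a call lost without NPC replicate 1 or MSC replicate 3, and Ccdc80 fell by 2.44.

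There were 3 cases where a region rose and its gene fell, and the levels of both are given for the first. At chr4:227699688-227700710 (plus strand, 1023 bases) the region stood at 1.38, 1.62 and 1.78 implied RPKM in MSCs and 5.19, 7.21 and 4.17 in NPCs, up by 1.63 ± 0.25 (limma, adjusted p = 0.00299). The unnamed gene 2178 bases before it went from 146, 169 and 182 FPKM to 58.8, 49.5 and 73.2 FPKM. The other 2, at chr8:17519678-17520846 (plus strand) and chrX:14930465-14932286 (minus strand), rose by 1.36 and 1.47, but the former was not called after quantile normalisation (0.83), nor the latter (1.00), which was called in only 1 of the 6 fits that left out a library. These 3 were also picked after their values were seen.

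The space between Igf2r, the receptor gene that clears IGF-2, and Mas1 was looked at because of the IGF-1 treatment, with its values already known. The plus strand there held 20 regions, 9 of them assembled in all libraries. The region chr1:51577155-51592885 (15731 bases) began 13 bases from the 5′ end of Igf2r, which lies on the minus strand. It stood at 0.594, 0.451 and 0.488 in MSCs, 3.42, 3.19 and 2.31 in NPCs, and 0.327, 1.92 and 2.28 with IGF-1. In NPCs it rose by 2.25 ± 0.24 (SE) on the log2 scale (limma, adjusted p = 0.000751). With IGF-1 the difference from MSCs was 0.99 and did not pass (adjusted p = 0.188), as 1 of those libraries lay below all MSCs. Without that library, IGF-1 replicate 1, the region was called. A second long region, chr1:51617923-51631735 (13813 bases), stood at 1.51, 0.666 and 1.62 in MSCs, 0.409, 1.41 and 6.93 in NPCs, and 7.96, 2.17 and 8.33 with IGF-1. NPCs overlapped MSCs there, while all libraries with IGF-1 lay above them, a log2 difference of 1.97 ± 0.89 that did not pass (limma, adjusted p = 0.108) and was called without NPC replicate 3 or with 6 libraries in the fit.

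The study's list of most differentially regulated genes and its RT-qPCR genes were looked up, and not the other genes that its text names. Of the 23 with an identifier in the files, 8 had a region in the 5 kb after them, 12 regions in all. There were 4 after Frzb, a secreted antagonist of Wnt signalling, 2 after Cass4, and 1 each after Ca3, Vcam1, Ret, Cdca3, Il33 and Txnip. None was assembled in all 9 libraries, and their mean implied RPKM ran from 0.0536 for a region after Frzb to 0.310 after Il33. These genes were chosen in the study from MSC and NPC samples, so they are no independent sample of downstream transcription.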

How the data were processed

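The 9 deposited files, 1 per library, hold transcripts that the authors assembled with Cufflinks; the labels also name CASAVA 1.8, bcl2fastq, TopHat, Bowtie2 and Cuffdiff, whereas the paper describes a route through BBDuk, STAR and RSEM. For these files, genome build and annotation release are not given in the sources used here. Attribute text in each file holds the FPKM deposited by the authors, scaled within a library, with a 95% interval. The score column, as deposited, was not used.

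Members were found per library by the rule given above; 1 member had no strand and 13 had 0 FPKM. Reads were implied from the width of the FPKM interval, and mapped reads per library from reads, FPKM and length of transcripts of 500 to 3000 bases. Region levels are implied reads per kb of region and M mapped reads (implied RPKM). FPKM times length had been planned but is inflated in short transcripts, so it became an alternative. Implied reads are estimates and not counts.

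Values per library were compared by exact permutation tests over libraries (smallest p 0.00357 for 3 groups, 0.1 for pairs; two-sided), adjusted over 5 measures. Regions, genes (annotated and unannotated isoforms summed) and other unannotated regions were scaled by median-of-ratios factors from annotated genes and fitted with limma 3.58.1 in R 4.3.3 on log2(value + 0.1), eBayes with trend and robust, for features at 0.1 or more in every library. NPCs and MSCs were fitted on 6 libraries, comparisons with IGF-1 on 9, with Benjamini-Hochberg adjustment over all features. Fold changes are on the log2(value + 0.1) scale, which understates the change of low regions. Other steps used Python 3.11.15, numpy 2.4.6, pandas 2.3.3 and matplotlib 3.10.9. The fit was tried on simulated data, with 100 regions changed by 1.5 and 100 by 3 on the log2 scale. For NPCs against MSCs it found 30 and 75 of these. For IGF-1 it found 47 and 86 against MSCs, and 50 and 87 against NPCs. Of the unchanged features it called 3, 7 and 3 in these comparisons.

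Regions were named by rule: the 5 highest assembled in all 9 libraries, the 5 largest rises and falls with groups apart per comparison, the 3 highest of each presence pattern, the 2 highest per distance class and the 3 longest. Some regions that the rule names are not described one by one or not reported here. Gene names, from the paper's tables, were available for 2452 of 26249 annotated units. Members and lists were chosen with earlier results of these data known.

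The alternatives were other pseudocounts, filters, scalings, joining distances and definitions of a region's level, the replicate number as a block, and each library left out. Those using FPKM times length and leaving out the member of most reads were chosen after seeing the data. No sequence is shown, since no genome of the files' build was used here.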

Additional observations from a re-analysis of the deposited data

How the results depend on the processing

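Of 145 alternatives to 8 results, 118 were counted as unchanged, and they include all those for the number of members and for their share under 5 kb. For the 5 measures per library, unchanged means the same direction and the same side of the threshold. For the results on called regions it means only a similar number of calls, whatever their direction. Leaving out 1 library moved the difference of NPCs from MSCs in number between 13849 and 15530, in share under 5 kb between -13.4 and -10.4 percentage points, in median FPKM between 0.0913 and 0.618, in share of reads between 1.53 and 1.95 points, and in median length between -42.8 and -16.1 bases, which passed only without NPC replicate 1. The median FPKM difference turned with mean FPKM (-42.4), as did the read share with summed FPKM (-10.6 points) or FPKM times length over its sum (-2.36). Called regions in NPCs against MSCs (788) became 176 with a pseudocount of 1, 5415 with 0.1 in 3 libraries, 1622 with no filter, 94 with 1 in every library, 477 after quantile normalisation, 494 when joined within 500 bases, 1433 with every unannotated exon and 446 with FPKM times length. With IGF-1 against MSCs (620) these were 138, 4072, 1349, 91, 422, 405, 1297 and 372. Of the 673 rises, 260 were kept after quantile normalisation, 636 with every unannotated exon and 121 with a pseudocount of 1, and of the 115 falls 114, 112 and 53. Rises were 69.9% of the calls with a pseudocount of 1 and 59.6% with 1 in every library. IGF-1 against NPCs gave 383 calls with 0.1 in 3 libraries, 19 with no filter and 1 each when joined, with every exon and with 6 libraries in the fit. Without 1 library the calls ranged over 671 to 836, 570 to 717 and 0 to 1. Those filters on fewer libraries admit regions that were not assembled in some, whose fold changes rest on the pseudocount. With FPKM times length, the called regions after Chst12, Hoxc11, Dmd and Ccdc80 and those at chr15:50933592-50953135, chr4:227699688-227700710 and chr8:17519678-17520846 were not called in NPCs against MSCs.

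Whether replicate numbers pair the libraries was not settled, since deviations were taken within groups of only 3. Over 15543 features, same-numbered deviations correlated at 0.038, 0.115 and 0.035 between MSCs and NPCs. Differently numbered ones correlated there at -0.098 to 0.056. In the other pairs of groups same-numbered deviations correlated at -0.117 to 0.086. Libraries did not all correlate best with their own number. With the number as a block the calls were 731, 599 and 0, and the read share differed by 1.68 points with an exact p of 0.0833, no longer passing the threshold.

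Most members had under 30 reads, so that absence from a library cannot be told from low coverage. The cause of the differing directions of read share and FPKM share was not tested.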
